A study of Homo sapiens with 4 samples.

Results

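The genes that carry out messenger RNA decay were examined in HCCLM3, a human hepatoma cell line, after knockdown of KIAA1429 (current symbol VIRMA), a subunit of the methyltransferase complex that places N6-methyladenosine on RNA. The 48 genes were chosen by name from the 13036 genes listed, as the subunits and cofactors of deadenylation, decapping, 5′ and 3′ exonucleolytic decay and nonsense-mediated decay. All 48 were found, with 165 of the 38510 listed transcripts. The control cells (shCtrl, 2 libraries) carried a lentivirus with a control short hairpin RNA and the knockdown cells (shKIAA1429, 2 libraries) a lentivirus with a hairpin against KIAA1429, and both groups were the same cell line. A single hairpin was used, and nothing in the labels says that the libraries of a group came from separate cultures, so the tests measure only the spread between these libraries.

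Most human messenger RNAs decay from their tail inward. The CCR4-NOT and PAN2-PAN3 complexes shorten the poly(A) tail. The LSM1-7 ring then binds the shortened end and recruits the decapping enzyme DCP2, after which the 5′ exonuclease XRN1 degrades the body of the RNA, while the exosome can degrade it from the 3′ end. Nonsense-mediated decay, driven by the helicase UPF1 and the SMG factors, removes messages whose translation ends early. N6-methyladenosine is known to feed into these routes through reader proteins that recruit CCR4-NOT and other decay factors.

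Levels were given as FPKM, a fragment count divided by transcript length and by the size of the library, and a gene's value was the sum over its listed transcripts, so levels can be compared between genes per unit of length. Values are printed in the order shCtrl 1, shCtrl 2, shKIAA1429 1, shKIAA1429 2. Differences are shKIAA1429 minus shCtrl on the log2(FPKM + 1) scale with a standard error (SE) from limma, which was run over all 11657 genes with at least 1 FPKM in at least 2 libraries. A gene was called at a Benjamini-Hochberg adjusted p under 0.05 with a log2 difference over 1 in size. "Higher" or "lower without overlap" means that both shKIAA1429 values lay above, or below, both shCtrl values. For a single gene the exact two-sided permutation test with 2 libraries against 2 cannot go below p = 0.333. Read depth is unknown, and in bulk RNA a lower level per cell cannot be told apart from fewer cells expressing a gene.

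The target of the hairpin was checked first. VIRMA measured 9.37, 14.1, 6.90 and 8.52 FPKM, lower without overlap, with a log2 difference of -0.53 ± 0.24 (SE, n = 2 per group; limma adjusted p = 0.917; exact permutation p = 0.333). The lower level of the target did not pass the test, and the difference ranged from -0.80 to -0.26 when a library was left out, being -0.26 without shCtrl replicate 2. Of the hepatocyte markers, the epithelial keratins KRT8 and KRT18 stood between 971 and 1176 FPKM in every library and the lipoprotein gene APOE between 18.4 and 32.2 FPKM, all overlapping between the groups. SERPINA1 was higher without overlap at 4.42, 3.34, 5.63 and 4.70 FPKM (0.34 ± 0.19), a side that 16.9% of all genes tested also took. The other 10 of the 14 hepatocyte markers, the defining secreted proteins AFP, ALB, APOA1, APOA2, APOB, TF, TTR, FGA, FGB and FGG, were not among the genes listed. Of 8 markers of other cells, CD68, CD14 and COL1A1 were listed, and none of the 3 separated the groups.

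No member of the decay machinery passed the test. The levels of the 48 genes spanned 0.741 to 82.6 FPKM on average, and the libraries of both groups took almost the same share of all FPKM for them: 0.184% and 0.192% in shCtrl and 0.176% and 0.177% in shKIAA1429. The median log2 difference over the 47 tested members was 0.02, against -0.01 over all genes tested, and the median size of the difference was 0.14 for both. PAN2, the catalytic subunit of PAN2-PAN3, was the member left out by the filter on low values, at 0.573, 0.697, 0.665 and 1.03 FPKM. No library stood apart over the members, the value farthest from a member's mean being that of shCtrl replicates 1 and 2 for 14 and 12 members and that of shKIAA1429 replicates 1 and 2 for 9 and 12.

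In the limma comparison 0 of 47 members were called, as were 0 of the 11657 genes (0% called), and the smallest adjusted p was 0.367 among members and 0.238 among all genes. The study itself compared read counts with DESeq and reported differentially expressed genes. The counts of 0 therefore hold for limma on FPKM, and the DESeq comparison was not repeated. An unadjusted p under 0.05 was reached by 4 members (8.51%), against 5.63% of all genes: DCP1B and EDC4 were higher and TOB1 and CNOT3 lower in shKIAA1429. Without overlap, 13 members were higher (27.7%, against 16.9% of all genes) and 9 were lower (19.1%, against 16.7% of all genes), while 25 overlapped. These counts moved with the scaling: when FPKM was rescaled to an equal sum in every library (TPM), 9 members were higher (19.1%, against 12.3% of all genes) and 10 lower (21.3%, against 22.2% of all genes), and the median difference was -0.02. The members that differed by at least 0.5 on the log2 scale were DCP1B, SMG8 and EDC4 upward (6.38%, against 3.75% of all genes) and TOB1, CNOT1 and CNOT3 downward (6.38%, against 3.76%). Of the 22 members without overlap, 20 had a difference that moved by over 1.5 times when some library was left out, the exceptions being DCP1B and EXOSC6.

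**Figure D1:**
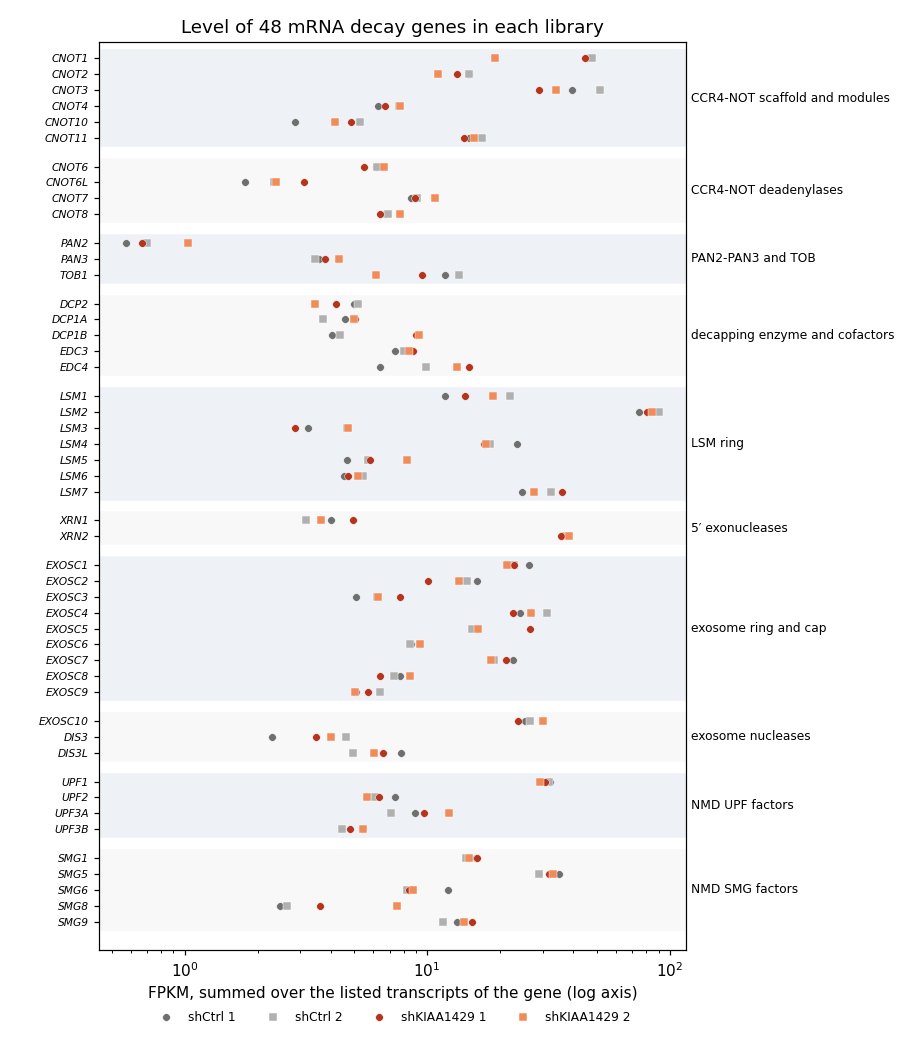
FPKM of the 48 genes in each of the 4 libraries (log axis), grouped by role, where grey points are shCtrl and red or orange points shKIAA1429. LSM2 stands highest at 74.6 to 90.3 FPKM and PAN2 lowest at 0.573 to 1.03 FPKM, and for most genes the 4 points lie close together.

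**Figure D2:**
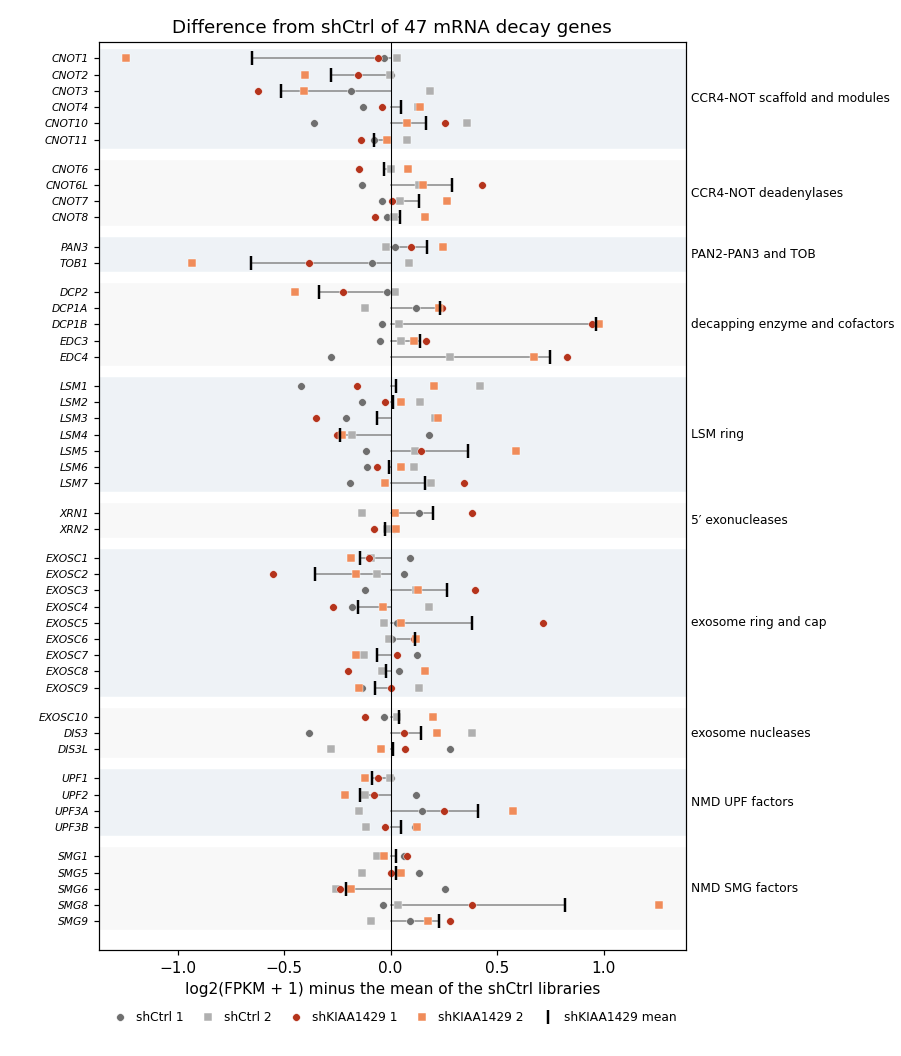
Difference of each library from the mean of the shCtrl libraries on the log2(FPKM + 1) scale for the 47 tested members; the black mark is the shKIAA1429 mean and the line joins it to 0. DCP1B shows both shKIAA1429 points together at the right, whereas for CNOT1, SMG8 and EXOSC5 a single shKIAA1429 library lies far from the other 3 points.

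At decapping none of the 5 members overlapped between the groups. By gene sum, the catalytic enzyme was lower and its 4 cofactors were higher in shKIAA1429. Without overlap, 16.7% and 16.9% of all genes tested also took these sides, and none of the 5 was called. Most of the FPKM of the cofactor EDC3 lay in a transcript that overlapped between the groups. Summed over the 5 genes, the level was 27.4 and 31.2 FPKM in shCtrl and 42.0 and 39.4 FPKM in shKIAA1429. All 5 also kept these sides under both other scalings of the libraries. The separation did not extend to 8 further decapping genes read from another list. Of these, 1 was higher (12.5%) and 1 lower (12.5%) without overlap, and their median log2 difference was -0.03.

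DCP1B (ENSG00000151065.13_2, chr12:2055220-2113701, minus strand, GRCh37), a paralog of the decapping activator DCP1A, measured 4.06, 4.35, 9.03 and 9.27 FPKM. Its shKIAA1429 libraries differed from each other far less than from either shCtrl library. The mean was 2.18 times the shCtrl mean, and the log2 difference was 0.96 ± 0.14 (SE, n = 2 per group; limma adjusted p = 0.367), the largest upward difference and the smallest p of the members. Leaving out any library kept it between 0.92 and 1.00. Most of the gene's FPKM lay in DCP1B-201, the transcript with the longer coding sequence, which measured 3.52, 3.88, 8.27 and 8.88 FPKM (86.6% to 95.8% of the gene), whereas DCP1B-202 stayed between 0.392 and 0.759 FPKM. No other annotated exon overlapped those of DCP1B.

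EDC4 (ENSG00000038358.14_3, chr16:67906926-67918406, plus strand), the large scaffold on which decapping factors assemble, measured 6.40, 9.90, 14.9 and 13.3 FPKM. The shCtrl libraries themselves lay apart. The log2 difference was 0.75 ± 0.23 (SE; limma adjusted p = 0.806), and 0.47 without shCtrl replicate 1. In the annotation 26.2% of its exonic bases also belong to another gene on the same strand, so reads there cannot be assigned to EDC4 with certainty.

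The other decapping members differed less. DCP2, the enzyme that cleaves the cap, measured 5.02, 5.17, 4.23 and 3.47 FPKM, a log2 difference of -0.33 ± 0.16 that was -0.22 without shKIAA1429 replicate 2 and -0.53 over protein coding transcripts alone. DCP1A measured 4.57, 3.72, 5.06 and 4.999 FPKM (0.23 ± 0.16). EDC3, an enhancer of decapping that binds DCP2, measured 7.38, 7.9997, 8.74 and 8.39 FPKM (0.14 ± 0.14). Most of its FPKM lay in EDC3-201, which overlapped at 6.50, 7.13, 5.63 and 7.005 FPKM (log2 difference -0.10). EDC3-214 measured 0.610, 0.611, 2.45 and 0.680 FPKM, standing apart in shKIAA1429 replicate 1. EDC3-204 was higher without overlap at 0.272, 0.262, 0.658 and 0.703 FPKM. Exons of a gene on the other strand lie opposite 14.8% of the exonic bases of EDC3. The separations of DCP1A and EDC3 were narrower than the gap between the shCtrl libraries. The adjusted p values of these 3 genes in limma were between 0.924 and 0.986.

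**Figure D3:**
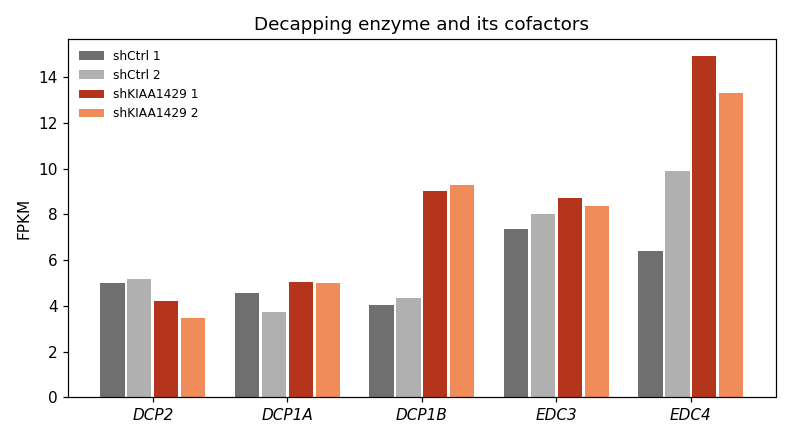
FPKM of the decapping enzyme DCP2 and its cofactors DCP1A, DCP1B, EDC3 and EDC4 in each library; bars start at 0. DCP2 is lower in both shKIAA1429 libraries and the other 4 genes are higher, with DCP1B at 9.03 and 9.27 FPKM against 4.06 and 4.35 FPKM in shCtrl.

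In the LSM1-7 ring, which links the shortened tail to decapping, levels were unequal although the proteins assemble in equal numbers. LSM2 averaged 82.6 FPKM and LSM3 3.86 FPKM, a 21.4-fold range. FPKM divides by transcript length, and LSM3-201 is annotated with 3359 exonic bases, of which 306 are coding. LSM2-208, the leading transcript of LSM2, has 858 exonic bases. The part of annotated length in this range was not tested. LSM3 also has 4 pseudogenes named after it in the annotation, and reads may be shared with them. LSM2 measured 74.6, 90.3, 80.5 and 84.9 FPKM, and LSM3 measured 3.23, 4.66, 2.84 and 4.71 FPKM. Both overlapped between the groups. LSM5 was higher without overlap at 4.69, 5.69, 5.81 and 8.27 FPKM (0.36 ± 0.21). LSM4 was lower without overlap at 23.6, 18.1, 17.2 and 17.5 FPKM (-0.24 ± 0.17). Both rested largely on a single library. Without shKIAA1429 replicate 2 LSM5 differed by 0.14, and without shCtrl replicate 1 LSM4 differed by -0.06. LSM1, LSM6 and LSM7 overlapped, with values from 4.55 to 36.0 FPKM.

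Neither exonuclease of the 5′ route separated the groups. XRN1, the cytoplasmic 5′ exonuclease, measured 4.02, 3.17, 4.96 and 3.64 FPKM. XRN2, its nuclear relative that acts in transcription termination, measured 38.2, 37.3, 35.7 and 38.4 FPKM, 9.47 times as much on average.

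Among the 6 members in the scaffold and modules of CCR4-NOT, none was higher without overlap. CNOT9, a further CCR4-NOT subunit that was read from another list, was higher without overlap at 7.73, 12.5, 17.6 and 16.1 FPKM. CNOT1, CNOT2 and CNOT3 were lower without overlap, a side that 16.7% of all genes tested also took. CNOT4, CNOT10 and CNOT11 (2.84 to 16.8 FPKM) overlapped. The summed level of the 6 members was 124 and 144 FPKM in shCtrl against 113 and 91.6 FPKM in shKIAA1429. CNOT3, which with CNOT2 forms the NOT module, measured 39.6, 51.6, 28.99 and 33.9 FPKM, with a log2 difference of -0.51 ± 0.18 (SE; limma adjusted p = 0.884) that was -0.33 without shCtrl replicate 2. CNOT2 measured 15.0, 14.9, 13.3 and 11.1 FPKM (-0.28 ± 0.16, and -0.15 without shKIAA1429 replicate 2).

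CNOT1, the scaffold that holds the complex together, measured 45.6, 47.7, 44.7 and 19.1 FPKM. Of the 4 libraries shKIAA1429 replicate 2 alone was low, and the log2 difference of -0.65 ± 0.40 (SE; limma adjusted p = 0.954) became -0.06 without that library. In the annotation 14.9% of the exonic bases of CNOT1 and 8.62% of those of CNOT3 lie opposite exons of a gene on the other strand, which these libraries may not separate.

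Of the 4 catalytic deadenylases of CCR4-NOT, 3 overlapped between the groups. CNOT6 measured 6.18, 6.22, 5.50 and 6.62 FPKM. CNOT7 measured 8.55, 9.13, 8.88 and 10.8 FPKM. CNOT8, the paralog of CNOT7, measured 6.70, 6.89, 6.41 and 7.71 FPKM. In each of these, shKIAA1429 replicate 2 was the highest library. CNOT6L, the lowest of the 4, was higher without overlap at 1.77, 2.34, 3.10 and 2.38 FPKM (0.29 ± 0.19), but shCtrl replicate 2 and shKIAA1429 replicate 2 were almost equal.

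Of the remaining deadenylation members, TOB1, an antiproliferative protein that brings CCR4-NOT to bound messages, had the largest downward difference. TOB1 (ENSG00000141232.4_3, chr17:48939584-48945339, minus strand) measured 11.9, 13.6, 9.53 and 6.17 FPKM, a log2 difference of -0.66 ± 0.23 (SE; limma adjusted p = 0.882) that ranged from -0.93 to -0.38 when a library was left out. An antisense gene covers 11.1% of its exonic bases. PAN3, the adaptor of PAN2, was higher without overlap at 3.58, 3.44, 3.81 and 4.35 FPKM (0.17 ± 0.15).

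The exosome degrades RNA from the 3′ end. Its 9 ring and cap genes summed to 132, 131, 132 and 126 FPKM, while single subunits differed in both directions. EXOSC3, EXOSC5 and EXOSC6 were higher without overlap, EXOSC1 and EXOSC2 were lower, and EXOSC4, EXOSC7, EXOSC8 and EXOSC9 (5.06 to 31.2 FPKM) overlapped. In the annotation 56.7% of the exonic bases of EXOSC4 also belong to another gene on the same strand. On the other strand, exons of another gene lie opposite 18.2% of the exonic bases of EXOSC4, 26.0% of EXOSC8 and 12.8% of EXOSC9. Of all genes tested, 16.9% were higher and 16.7% lower without overlap.

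EXOSC5 measured 16.1, 15.3, 26.5 and 16.2 FPKM. It was high in shKIAA1429 replicate 1 alone, and its log2 difference of 0.38 ± 0.25 became 0.05 without that library. EXOSC3, a cap subunit that binds RNA, measured 5.11, 6.22, 7.75 and 6.27 FPKM (0.26 ± 0.18), again with shCtrl replicate 2 next to shKIAA1429 replicate 2. Another gene on the same strand shares 8.27% of its exonic bases. EXOSC6 measured 8.57, 8.49, 9.28 and 9.34 FPKM, a small but even difference of 0.11 ± 0.14. Lower levels were seen in the same complex. EXOSC2, another cap subunit, measured 16.0, 14.6, 10.1 and 13.6 FPKM (-0.36 ± 0.19). Its difference was -0.16 without shKIAA1429 replicate 1, -0.55 without shKIAA1429 replicate 2, and -0.73 over protein coding transcripts alone. EXOSC1 measured 26.2, 22.9, 22.8 and 21.4 FPKM (-0.14 ± 0.14). The catalytic subunits EXOSC10, DIS3 and DIS3L all overlapped between the groups. EXOSC10, a mainly nuclear nuclease, measured 25.4, 26.6, 23.8 and 29.99 FPKM. DIS3 measured 2.30, 4.62, 3.50 and 4.01 FPKM. Its cytoplasmic relative DIS3L measured 7.80, 4.97, 6.60 and 6.04 FPKM. For DIS3 and DIS3L the shCtrl libraries marked both the highest and the lowest value.

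For nonsense-mediated decay, the core helicase differed little at the gene level. UPF1 (ENSG00000005007.12_2, chr19:18942747-18979045, plus strand) measured 32.1, 31.9, 30.7 and 29.3 FPKM, lower without overlap by -0.09 ± 0.13 (SE; limma adjusted p = 0.987). UPF3A, a paralog of the exon junction adaptor UPF3B, was higher at 8.94, 7.09, 9.67 and 12.3 FPKM (0.41 ± 0.20), while UPF2 and UPF3B (4.46 to 7.39 FPKM) overlapped. The difference of UPF3A was 0.25 without shKIAA1429 replicate 2, 0.26 without shCtrl replicate 2 and 0.23 over protein coding transcripts alone, and the noncoding UPF3A-204 made up 28.0% of the gene in shKIAA1429 replicate 2. UPF3A has 3 pseudogenes named after it in the annotation, and reads may be shared with them.

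SMG8, which with SMG9 regulates the kinase SMG1 that phosphorylates UPF1, measured 2.47, 2.64, 3.63 and 7.50 FPKM. Both shKIAA1429 libraries were higher, but the second stood far above the first, and the log2 difference of 0.82 ± 0.32 (SE; limma adjusted p = 0.884) was 0.38 without it. In the annotation 12.1% of the exonic bases of SMG8 also belong to another gene on the same strand. SMG9 was higher at 13.3, 11.6, 15.3 and 14.2 FPKM (0.23 ± 0.15). The endonuclease SMG6 measured 12.2, 8.30, 8.43 and 8.76 FPKM, with shCtrl replicate 1 apart from the other 3. SMG5, among the most abundant members, measured 35.0, 28.9, 31.9 and 33.0 FPKM and overlapped, as did SMG1 (14.5 to 16.1 FPKM), for which 7 pseudogenes are annotated by name.

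The level of a gene can stay the same while its transcripts exchange places, so the transcripts were compared next. Of the 165 member transcripts 129 were listed as protein coding, and these held 91.1% to 92.9% of the member FPKM in each library. In limma over 24996 transcripts, 0 of 113 member transcripts were called (0% of all transcripts), with a smallest adjusted p of 0.114 among members and 0.111 over all. An unadjusted p under 0.05 was reached by 14 member transcripts (12.4%, against 6.28% of all). The groups were separated, with means at least 2 FPKM and at least 2-fold apart, in 9 of the 165 listed transcripts, from 6 members. Of these, 6 were higher (3.64%, against 1.8% of all 38510 listed transcripts) and 3 lower (1.82%, against 1.92%).

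The largest exchange was in UPF1. UPF1-201 measured 23.6 and 22.1 FPKM in shCtrl and 6.06 and 5.62 FPKM in shKIAA1429, and UPF1-207 measured 6.82 and 7.91 FPKM in shCtrl and 24.3 and 23.0 FPKM in shKIAA1429. Together they summed to 30.5, 30.01, 30.3 and 28.6 FPKM. As a share of the gene, UPF1-201 made up 73.8% and 69.3% in shCtrl and 19.7% and 19.2% in shKIAA1429, and UPF1-207 21.3% and 24.8% and then 79.1% and 78.4%. The libraries of each group were close to each other and far from the other group. The log2 differences were -1.80 ± 0.15 for UPF1-201 (SE, n = 2 per group; limma adjusted p = 0.149) and 1.56 ± 0.16 for UPF1-207 (adjusted p = 0.181), so that neither was called among all transcripts tested. Leaving out any library kept them at -1.85 to -1.76 and 1.47 to 1.66.

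The coding sequences of these UPF1 transcripts differ by 33 bases, or 11 codons, at chr19:18963881-18963913 (GRCh37, plus strand), an extension of exon 7 that is present in UPF1-207 (3387 coding bases) and absent from UPF1-201 (3354 coding bases). The extension lies between alternative 5′ splice sites, and the form that contains it is known as the long-loop form, since it lengthens a regulatory loop of the helicase. The spliced transcripts, with 30 bases on either side of the junction, and the genome across the exon end are shown to make the difference visible. Capitals mark the bases that only UPF1-207 retains.
UPF1-201, spliced: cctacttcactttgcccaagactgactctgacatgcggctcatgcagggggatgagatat
UPF1-207, spliced: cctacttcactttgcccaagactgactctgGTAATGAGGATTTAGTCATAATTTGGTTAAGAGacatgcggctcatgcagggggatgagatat
Genome, chr19:18963851-18963943: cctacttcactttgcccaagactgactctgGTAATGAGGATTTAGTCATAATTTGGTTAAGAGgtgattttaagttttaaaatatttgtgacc
Both ends are followed by GT in the genome, the usual start of an intron. The transcripts also share 98.6% of their exonic bases, so that their FPKM values rest on how reads in a short stretch, and at the transcript ends, were assigned.

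CNOT3 also had a different leading transcript in each group. CNOT3-201 measured 17.8, 18.3, 8.31 and 10.7 FPKM, whereas CNOT3-202 measured 2.15, 10.2, 16.1 and 16.7 FPKM. They share the same 2259 coding bases and differ in their untranslated ends, so both encode the same protein. CNOT3-205, a partial transcript whose start is not known, measured 15.2, 16.8, 0.876 and 1.12 FPKM, the lowest difference among the named transcripts, with a log2 difference of -3.09 ± 0.19 (SE; limma adjusted p = 0.114). Without it the gene did not separate the groups, since CNOT3-201 and CNOT3-202 together gave 19.9, 28.5, 24.4 and 27.4 FPKM, whose ranges overlapped.

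**Figure D4:**
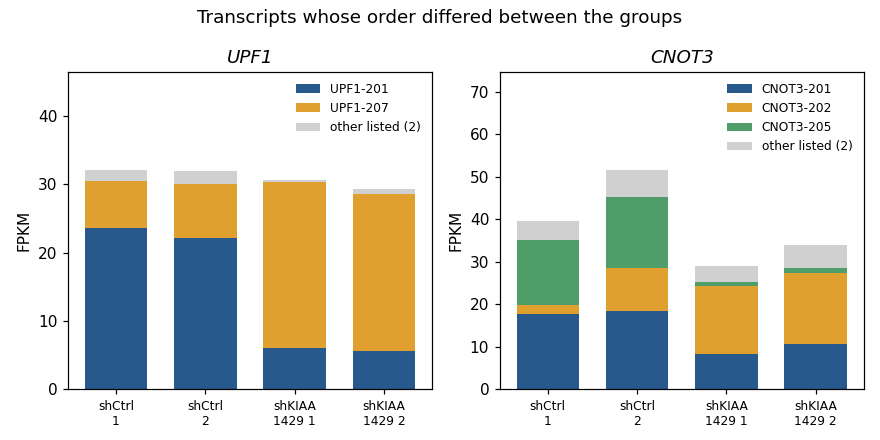
FPKM of the transcripts of UPF1 (left) and CNOT3 (right) in each library, stacked to the gene sum; bars start at 0. UPF1-207 makes up 79.1% and 78.4% of the gene in shKIAA1429 against 21.3% and 24.8% in shCtrl at a similar total, and CNOT3-205 is almost gone from both shKIAA1429 bars.

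The remaining named transcripts were lower in level. CNOT2-220 measured 5.42 and 2.21 FPKM in shCtrl and was listed at 0 in both shKIAA1429 libraries. CNOT2-227 was listed at 0 in both shCtrl libraries and measured 2.40 and 1.66 FPKM in shKIAA1429. Of the 1085 exonic bases of CNOT2-220, 1082 are shared with CNOT2-227, and both are partial transcripts whose end is not known. The part of transcript assignment in these CNOT2 values was not tested. CNOT8-204 measured 0.649, 0.261, 1.69 and 5.60 FPKM, and SMG8-201 measured 0.0409, 1.15, 1.37 and 7.50 FPKM. For CNOT8-204 and SMG8-201 shKIAA1429 replicate 2 stood far above the others.

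How much a leading transcript says about the groups depends on how steady it is within them. Among the 38 members with at least 2 listed transcripts, the leading transcript was the same in all 4 libraries for 18 (47.4%, against 58.6% of all such genes), and was shared within each group but different between them for 2, UPF1 and CNOT3 (5.26%, against 3.27% of all such genes). In the other 18 members it differed in ways that did not follow the groups. The genes given next were chosen after their values were seen.

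CNOT1-201 measured 24.8, 5.87, 6.12 and 6.84 FPKM, and CNOT1-216 measured 5.97, 28.3, 25.7 and 0.00955 FPKM. The shCtrl libraries thus had different main transcripts of CNOT1, and CNOT1-216 was nearly absent from shKIAA1429 replicate 2, the library in which the gene sum was low. In coding sequence these transcripts differ by 15 bases, or 5 codons, at chr16:58590751-58590765 (GRCh37, minus strand), again an extended exon end, of exon 19, followed by GT at either site. Capitals mark the bases that only CNOT1-201 retains.
CNOT1-216, spliced: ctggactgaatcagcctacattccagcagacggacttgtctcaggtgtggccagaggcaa
CNOT1-201, spliced: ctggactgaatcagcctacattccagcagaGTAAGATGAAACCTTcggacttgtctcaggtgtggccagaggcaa

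The deadenylases CNOT6 and CNOT8 also had leading transcripts that differed within a group, while their gene sums overlapped. CNOT6-201 measured 4.75, 0.219, 0.178 and 5.57 FPKM, and CNOT6-207, which has the same coding sequence, was listed at 0 in shCtrl replicate 1 and shKIAA1429 replicate 2 and measured 5.23 and 4.28 FPKM in the others. Their sum was 4.75, 5.45, 4.46 and 5.57 FPKM. For CNOT8 the leading transcript was CNOT8-202 in shCtrl replicate 1 (5.46 FPKM), CNOT8-201 in shCtrl replicate 2 and shKIAA1429 replicate 1 (5.52 and 3.86 FPKM), and CNOT8-204 in shKIAA1429 replicate 2 (5.60 FPKM), and all 3 hold the same 876 coding bases. The leading transcripts of CNOT6 and CNOT1 changed in the same libraries, shCtrl replicate 1 and shKIAA1429 replicate 2 standing on the same side. CNOT1-201 was not as high in shKIAA1429 replicate 2 (6.84 FPKM) as in shCtrl replicate 1 (24.8 FPKM). It led in the former with CNOT1-216 at 0.00955 FPKM. The part of transcript assignment in the UPF1 and CNOT3 values was not tested.

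**Figure D5:**
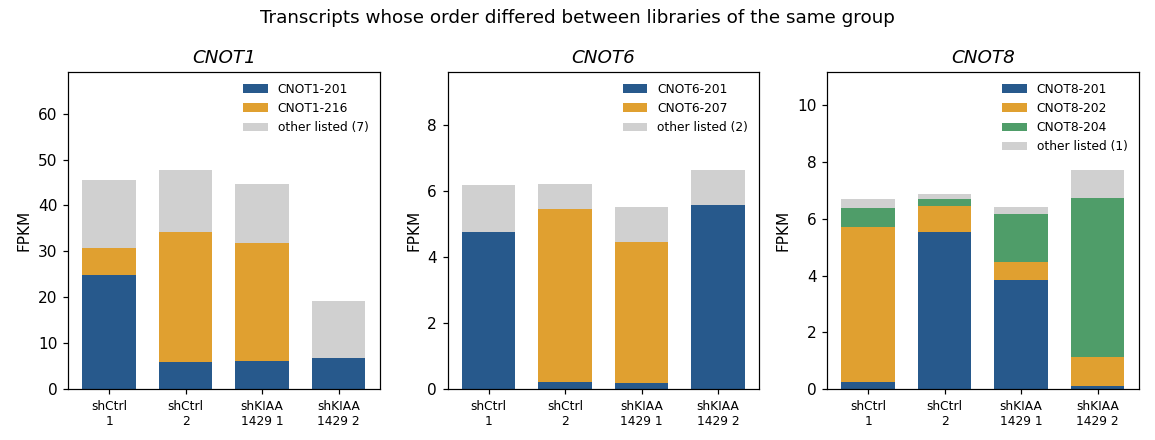
FPKM of the transcripts of CNOT1, CNOT6 and CNOT8 in each library, stacked to the gene sum; bars start at 0. CNOT1-201 and CNOT6-201 lead in shCtrl 1 and shKIAA1429 2, and CNOT1-216 and CNOT6-207 in shCtrl 2 and shKIAA1429 1, so the order differs between libraries of the same group.

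The exosome genes EXOSC1 and EXOSC10 also mixed their transcripts unevenly. EXOSC1-202 measured 18.8, 10.9, 10.7 and 6.22 FPKM. EXOSC1-204, which holds 75 further coding bases, measured 7.37, 12.0, 12.1 and 15.2 FPKM. In both, shCtrl replicate 2 and shKIAA1429 replicate 1 were nearly equal. EXOSC10-202 led in every library at 17.0, 25.3, 23.3 and 28.7 FPKM, while EXOSC10-201, which lacks 75 coding bases, reached 7.99 FPKM in shCtrl replicate 1 and stayed at or below 0.527 FPKM elsewhere.

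Genes that work beside the machinery were read from a list of 66 further decay genes, of which 65 were listed and tested. In limma 0 were called, and 2 had an unadjusted p under 0.05, which 5.63% of all genes reached. Without overlap, 10 were higher (15.4%, against 16.9% of all genes) and 9 lower (13.8%, against 16.7%). The median log2 difference was 0.01. CNOT9, a CCR4-NOT subunit that binds silencing factors, measured 7.73, 12.5, 17.6 and 16.1 FPKM (0.72 ± 0.24; limma adjusted p = 0.872), and its difference was 0.40 without shCtrl replicate 1. ZFP36, which recruits CCR4-NOT to AU-rich messages, measured 8.87, 19.1, 23.3 and 21.6 FPKM (0.73 ± 0.36; limma adjusted p = 0.924), and its difference was 0.22 without shCtrl replicate 1. YTHDF2, the reader that links N6-methyladenosine to CCR4-NOT, was chosen after its values were seen and overlapped at 9.07, 12.4, 9.37 and 18.6 FPKM.

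Known substrates of nonsense-mediated decay were read from a list of 19 genes, of which 16 were listed and tested. In limma 0 were called, and 1 had an unadjusted p under 0.05, which 5.63% of all genes reached. Without overlap, 1 was higher (6.25%, against 16.9% of all genes) and 0 lower (against 16.7%). The gene that was higher, the stress-induced transcription factor ATF3, was low throughout at 0.608, 1.24, 3.09 and 2.78 FPKM (1.05 ± 0.22; limma adjusted p = 0.541). The median log2 difference of the 16 was 0.07. Several differed more by replicate number than by group. Chosen after their values were seen, DDIT3 measured 50.6, 8.67, 38.6 and 14.5 FPKM, and GAS5 104, 66.2, 134 and 80.9 FPKM.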

How the data were processed

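RNA from 4 HCCLM3 libraries (shCtrl and shKIAA1429, 2 each; groups and replicate numbers from the sample titles) had been sequenced. By the methods of the study, paired reads were aligned with TopHat and counted with HTSeq, and the submitters' processing notes name Bowtie2 2.1.0 and hg19. The deposited values are FPKM per annotated transcript on GRCh37; the tool that produced them is not given in the sources used here. Depth could not be recovered, and every listed transcript reaches at least 0.504 FPKM in some library.

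FPKM were summed per gene identifier. Genes with at least 1 FPKM in at least 2 libraries entered limma 3.58.1 (R 4.3.3), with group as the sole term and a trended eBayes, on log2(FPKM + 1). Tests were two-sided, with Benjamini-Hochberg adjustment over all 11657 genes or 24996 transcripts. The script was tested on simulated data. Structures and sequences came from GENCODE 44 lifted to GRCh37 (163 of 165 member transcripts matched) and from the GRCh37 genome; overlaps and pseudogene names were read from the same annotation. The library kit is not stated to mark strand. Identifiers of 2 rows, no member among them, stood out of order.

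Named were the members without overlap, the 5 highest and 5 lowest by mean, the enzymes with CNOT1 and UPF1, transcripts differing by at least 2 FPKM and 2-fold without overlap, and genes of the other lists differing by at least 0.5 without overlap; others are marked in the text. The members and lists were chosen with earlier results of these data known. Alternatives were a pseudocount of 0.1, other filters, upper quartile and TPM scaling, protein coding transcripts alone, a replicate block, robust variances and leaving out each library. Figures were drawn with matplotlib 3.10.9.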

Additional observations from a re-analysis of the deposited data

How the results depend on the processing

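Over 42 results, 404 of 416 alternative values kept their direction and their side of the threshold, or moved by less than the spread between replicates, and none changed sign in a result with a test. No member and no member transcript was called under any alternative run. The median difference of the members was -0.0242 with TPM scaling and -0.0270 to 0.0667 when a library was left out, so its sign is not fixed by these data. When a library was left out, 0 to 1 of all genes were called (1 without shCtrl replicate 1), 33 to 36 members did not overlap, 16 to 22 of them higher (34.0% to 46.8%, against 30.6% to 34.1% of all genes) and 12 to 17 lower (25.5% to 36.2%, against 30.7% to 38.4%); with 3 libraries fewer values have to be separated, so overlap is rarer by construction, and the group with a single library is assumed to vary like the other.

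The libraries share replicate numbers, but nothing in the labels says that a number marks a shared batch, and there are only 2 pairs. Deviations of same-numbered libraries correlated at 0.32 over all genes and 0.0997 over the members. With the replicate block 0 members were called, and DCP1B kept its difference of 0.96 with a limma adjusted p of 0.319 (0.319 to 0.766 over its alternatives). Unknown depth limits the reading of genes and transcripts at a few FPKM.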

Other observations

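Several transcripts that nonsense-mediated decay or the stress-response translation program is known to control differed more between replicate numbers than between groups; they were chosen after their values were seen. TRIB3, a pseudokinase induced by amino acid and endoplasmic reticulum stress, measured 101 and 84.1 FPKM in replicates 1 of shCtrl and shKIAA1429, against 35.2 and 44.3 FPKM in replicates 2. ASNS, asparagine synthetase, measured 67.8 and 91.9 FPKM in replicates 1, against 27.2 and 41.7 FPKM in replicates 2. ATF4, the transcription factor upstream of both, measured 234 and 260 FPKM against 120 and 183 FPKM, and CARS, the cysteinyl-tRNA synthetase, 37.1 and 43.2 FPKM against 19.7 and 27.3 FPKM. SNHG1, a noncoding host gene of small nucleolar RNAs, measured 18.1 and 17.9 FPKM against 6.96 and 8.33 FPKM. In all 5 genes both replicates 1 lay above both replicates 2. From the same list of nonsense-mediated decay substrates, ATF3, SNHG16, TBL2 and UPP1 did not separate in this way. The share of all genes that did was not counted. Whether the pattern is particular to such transcripts was therefore not tested.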
